A study of Mus musculus with 12 samples.

Results

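Exhausted-like CD8 T cells of MC38 tumours were chosen from single-cell RNA counts by a gate on unique molecular identifiers (UMIs, each standing for 1 captured RNA molecule). A cell passed where Cd8a or Cd8b1 was detected, Pdcd1 (PD-1) and Havcr2 (TIM-3) were both detected, and Cd4, Foxp3, Tcf7 (TCF-1) and Klre1 (an NK receptor) were all at 0. The gate held 112 of 2740 kept cells, or 112 of 1566 CD8 cells, and they are called exhausted-like cells here. Steps of the gate left 1000 CD8 cells with Pdcd1, 620 with Havcr2 as well, 496 of those with Tcf7 at 0, and then 112 with Klre1 at 0. The genes of the gate are a description of these cells and were not tested.

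MC38 is a murine colorectal cancer line, grown here in Kaede(het) mice, which carry 1 copy of a fluorescent protein that violet light switches from green to red. In every group the tumour-draining lymph node was exposed to 405 nm light for 5 min on day 14, so a red T cell found in the tumour was converted in that node and a green one was not. NT tumours received neither radiation nor FTY720, RT tumours a single 12 Gy dose on day 14, and FTY720, a modulator of sphingosine-1-phosphate receptors that retains lymphocytes in lymphoid organs, was injected at 10 µg on day 15. Tumours were taken at day 1 (24 h after irradiation) in NT and RT mice, and at day 3 (72 h) in NT, RT, FTY720 and RT+FTY720 mice, which makes 6 conditions. Each condition had 2 replicates that pooled tumours of 4 mice, so a pool, and not a mouse, is the unit of every test below. Live CD90.2+ cells, enriched with CD4/CD8 magnetic beads and marked by hashtag antibodies before the sort, were sorted by colour into 24 hashed samples and loaded in 4 wells. The sources used here give no age or sex of the mice.

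CD8 T cells that meet their antigen for a long time in a tumour enter a state called exhaustion. They carry inhibitory receptors such as PD-1, TIM-3, LAG-3 and TIGIT, driven in part by the transcription factor TOX, and lose effector functions step by step. A progenitor subset keeps TCF-1, divides, and gives rise to cells without TCF-1 that express TIM-3, granzymes and the ectoenzymes CD39 and CD38, and that no longer self-renew.

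Depth was 21917 UMIs per exhausted-like cell at the median (873 to 67550), near the 23954.5 of CD8 cells with Pdcd1 and Tcf7 (304 cells, called Tcf7+ cells) and the 26384 of CD8 cells with Pdcd1, Havcr2 and Klre1 (384 cells, called Klre1+ cells). No cell barcode was shared between wells. Exhausted-like cells carried medians of 10.5 Pdcd1 and 7 Havcr2 UMIs, and 110 of 112 had both Cd8a and Cd8b1. At the edge of the gate, 11 had 1 UMI of Pdcd1 and 13 had 1 UMI of Havcr2. Outside it, 20 cells failed by 1 UMI of Tcf7 alone, 47 by 1 UMI of Klre1 alone, 92 by Havcr2 at 0 and 15 by Pdcd1 at 0. A zero depends on depth: with cells of at least 5000 UMIs thinned to that number, 178 passed the gate, and 72 of the 112 were among them. Cells of lower depth were left out of that count, and 107 of the 112 were deep enough. Markers of other cells were low, apart from Il2ra, Cd40lg and Ikzf2 of the CD4 and Treg list. The 3 measured gamma-delta T cell genes and the 5 red cell and platelet genes were at 0, as were Ncr1 and Klra8 of NK cells, Csf1r, Adgre1 and Cd14 of myeloid cells, and Cd79a and Ms4a1 of B cells. Summed levels of the 12 myeloid markers ran from 24.8 to 286 CPM over pools (counts scaled to a common library total), against 36.2 to 104 in Tcf7+ cells, and those of the 5 NK markers from 0 to 126 against 0 to 45.7. The 6 B cell markers summed to 0 to 33.3 CPM against 38.9 to 76.3 in Tcf7+ cells. The 5 CD4 and Treg markers, with Cd4 and Foxp3 at 0 by the gate, summed to 313 to 633 CPM against 303 to 690 in Tcf7+ cells. Of these, Il2ra had a median of 320 CPM over pools, against 184 in Tcf7+ cells.

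Of the 4 marker genes given for these cells, Lag3 was the only one that the gate did not use. LAG-3 is an inhibitory receptor for MHC class II molecules. It had a UMI in 84.8% of exhausted-like cells, 71.1% of Tcf7+ cells, 96.9% of Klre1+ cells and 8.81% of resting CD8 cells, which lack Pdcd1 and carry Tcf7 and Ccr7. The part of the name that speaks of a terminal state met mixed values, given below: levels of Tox and Cd101 did not exceed those of Tcf7+ cells in every pool, and 19.6% of the cells held a UMI of Il2.

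Before the results, the hashtags need a measured fact. Cells of a condition were marked with a pair of tags whose colours are crossed between the replicates in the deposited matrices. For NT day 1 they were:
NT day 1, red in replicate 1 and green in replicate 2: acccaccagtaagac
NT day 1, green in replicate 1 and red in replicate 2: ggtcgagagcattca
The labels instead give each tag number the same colour in both replicates, so the 2 sources differ for 12 of the 12 hashed samples of replicate 2 and for none of replicate 1. Colours here follow the matrices. T cell clones, defined by identical alpha and beta sequences, followed the tag and not the replicate number. Of 68 clones found in both replicates of a condition, 64 carried a single tag sequence in both, and 2 carried a single colour. Red and green cells with the same replicate number shared 7 clones, whereas red and green cells with the same tag sequence shared 66, of 1101 red and 878 green clones. Among clones that held an exhausted-like cell, 15 of 88 lay in both colours of a tag, with 28 of the 104 exhausted-like cells that had both chains. Results that rest on colour or on pools are therefore also given with pools formed by tag sequence, an alternative chosen after seeing the data. The tags were added before the sort by colour, so red and green cells stained together carry the same tag. Whether the tags or the replicate numbers mark shared animals was not tested beyond these counts.

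**Figure D1:**
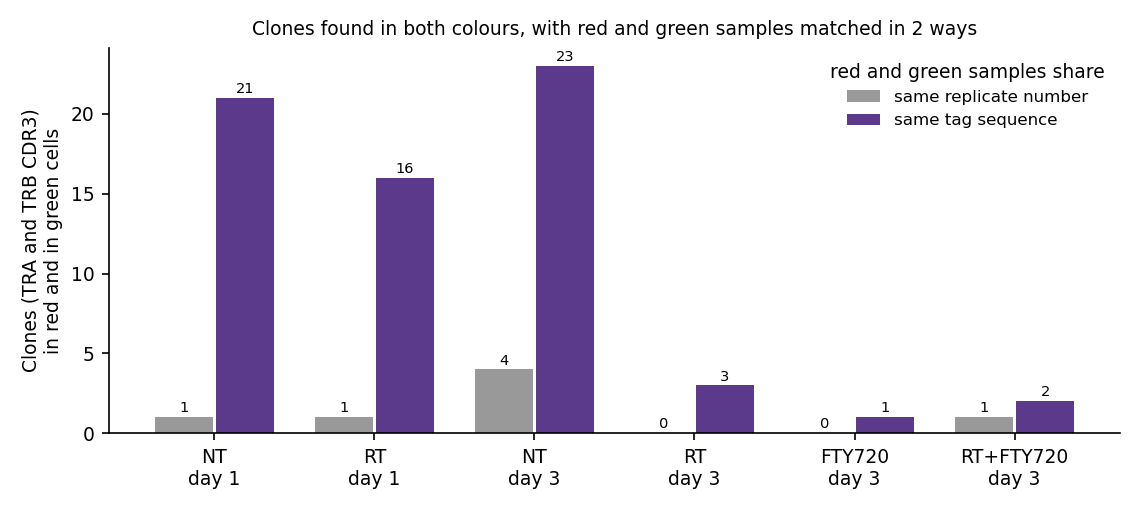
Number of T cell clones (identical alpha and beta sequences, vertical axis) found in both red and green cells of each of the 6 conditions, with cells paired by replicate number or by tag sequence. Bars for the tag sequence sum to 66 clones and those for the replicate number to 7, and 21 of the 66 are in NT day 1.

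The first comparison asked whether exhausted-like cells took a larger share of CD8 cells among recent arrivals from the node. They made up 8.94% of all red and 4.90% of all green CD8 cells, but the difference over the 12 pools did not pass the test. Per pool, the red share ran from 0% to 14.3% with a median of 8.21%, and the green share from 0% to 17.6% with a median of 3.75%. The mean was 7.79% ± 4.79 (SD, n = 12 pools) in red and 4.60% ± 5.23 in green cells, a difference of 3.19 percentage points (two-sided exact sign-flip permutation test, p = 0.202), with red higher in 9 pools and lower in 2. Paired by tag sequence, red was higher in 9 and lower in 1 (exact p = 0.107). The share was higher in red cells in every pool of NT day 1, RT day 1 and NT day 3, and the ranges of the 2 colours in these pools touched only between 5.68% and 7.75%.

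In NT day 1 the red and green shares were 12.3% and 3.23% in replicate 1 and 12.1% and 7.75% in replicate 2. RT day 1 had 10.9% and 4.55%, then 9.52% and 5.17%. NT day 3 had 5.68% and 2.56%, then 6.08% and 4.27%. Over these 6 pools, a subset chosen after seeing the data, red exceeded green by 4.83 points in 6 of 6 (9.42% ± 2.91 against 4.59% ± 1.81, exact sign-flip p = 0.03125, the smallest that 6 pools can give). The pools of RT day 3, FTY720 day 3 and RT+FTY720 day 3 held 11 to 34 CD8 cells per colour and gave 0 to 4 exhausted-like cells each, and red exceeded green there by 1.55 points (exact p = 0.8125). The gap of 3.28 points between the 2 sets of pools did not pass a permutation test over pools (p = 0.571). In 6 of these 12 hashed samples no cell passed the gate, where a count of 0 still allows shares of up to 11.1% to 27.3%. Without RT+FTY720 day 3 replicate 1, where 3 of 17 green and 0 of 13 red CD8 cells passed, the difference over 11 pools was 5.08 points (exact p = 0.00586). That pool had the largest green excess, and its omission was the only 1 of 12 that changed the call. Over the 12 omissions the exact sign-flip p ran from 0.00586 to 0.377. With cells thinned to 5000 UMIs the difference was 7.22 points (exact p = 0.0156). Only 72 of the 178 cells that passed the gate after thinning were among the 112, so that value describes a largely different set of cells. With colours taken from the labels' tag numbers the difference was -0.667 (exact p = 0.798).

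**Figure D2:**
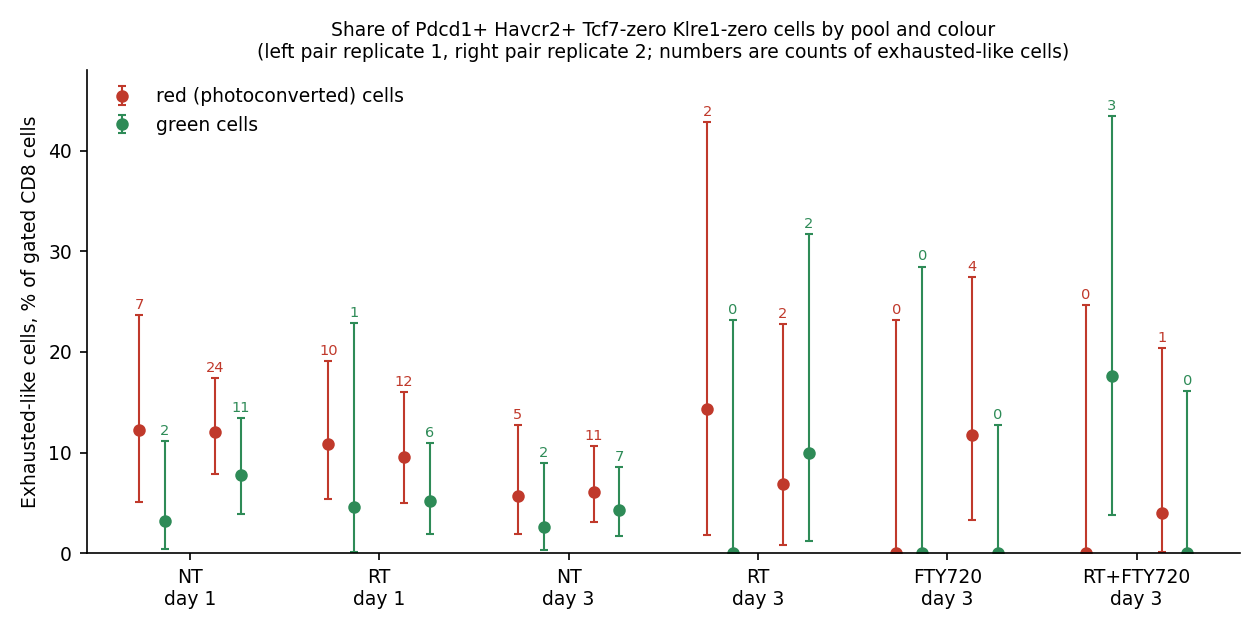
Share of exhausted-like cells among CD8 cells (percent, vertical axis) for red and green cells of each tumour pool, with the left pair of a condition for replicate 1 and the right pair for replicate 2, exact 95% binomial intervals as bars and cell counts as numbers. Red lies above green in all 6 pools of NT day 1, RT day 1 and NT day 3, and the intervals of the other 6 pools are wide.

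Of exhausted-like cells, 69.6% were red (61.1% to 90.9% over the 6 pools with at least 5). Of Tcf7+ cells 61.2% were red (42.9% to 93.1% over the same pools), of Klre1+ cells 58.9% (45.9% to 76.9%) and of all CD8 cells 55.7% (47.9% to 80.7%). The ranges overlap, no test was made, and the values rest on the colours that the deposited matrices give in replicate 2, which the labels reverse. Red and green cells were sorted into separate samples, so these percentages also depend on how many cells of each colour were sorted and loaded. They are not the share of red cells in the tumour. Treatment and time were compared with both colours summed. In that count the share was 7.56% and 10.3% in the pools of NT day 1, 9.65% and 7.44% in RT day 1, 4.22% and 5.22% in NT day 3, 7.14% and 8.16% in RT day 3, 0% and 6.56% in FTY720 day 3, and 10.0% and 2.17% in RT+FTY720 day 3. Both NT day 3 pools lay below both pools of NT day 1, RT day 1 and RT day 3, and the FTY720 pools overlapped the others. The zero of FTY720 day 3 replicate 1 rests on 25 CD8 cells and allows up to 12.0%.

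The share did not pass the test for radiation over its 3 strata (day 1, day 3, day 3 with FTY720): 7.43% ± 2.82 with and 5.64% ± 3.46 without it (n = 6 pools each, difference 1.79 points, stratified exact permutation p = 0.324). The stratum differences were -0.370, 2.94 and 2.81 points. In cells thinned to 5000 UMIs the difference was 6.96 points (exact p = 0.0278), but only 72 of those 178 cells were among the 112. FTY720 gave 4.68% ± 4.47 against 6.19% ± 1.79 without it at day 3 (n = 4 pools each, difference -1.50 points, exact p = 0.5), and leaving out FTY720 day 3 replicate 1 or RT+FTY720 day 3 replicate 2 turned the difference to 0.137 or 0.454. From day 1 to day 3 without FTY720 the share went from 8.73% ± 1.44 to 6.19% ± 1.79 (n = 4 pools each, difference -2.54 points, exact p = 0.111, where 0.0556 is the smallest possible). Pools formed by tag sequence gave differences of 0.790, -1.95 and -2.32 points (exact p = 0.889, 0.556 and 0.222). None of these 3 comparisons passed the test, and RT and NT at day 3 were in different wells.

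Expression of exhausted-like cells was then set beside that of Tcf7+ and Klre1+ cells, in CPM summed over the cells of a pool, in the 6 pools of NT day 1, RT day 1 and NT day 3 with at least 5 exhausted-like cells. This is a description with no test, since the gate chose the cells on expression. Of 9811 genes, 385 (3.92%) were higher than in Tcf7+ cells in every pool and 712 (7.26%) lower. Against Klre1+ cells the counts were 316 (3.22%) and 384 (3.91%). Members of each gene list are read against these shares.

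Among inhibitory receptors other than the gate's own, none of the 11 genes compared was higher than in Tcf7+ cells in every pool. Lilrb4a, a receptor of the immunoglobulin superfamily, was lower in every pool (19.3 against 57.2 CPM). Lag3 stood at 424 and 398 in NT day 1, 233 and 242 in RT day 1 and 419 and 399 in NT day 3, or 353 ± 89.7 CPM (SD, n = 6 pools), against 183 ± 46.5 in Tcf7+ cells and 427 ± 88.0 in Klre1+ cells. It was above Tcf7+ cells in 5 of 6 pools. Tigit, a receptor of the poliovirus receptor family, averaged 213 ± 61.3 CPM against 146 ± 23.9, higher in 5 of 6. Ctla4 was at 240.0, 230.0 and 233 CPM in exhausted-like, Tcf7+ and Klre1+ cells. Cd160, whose product binds HVEM, and Vsir, which encodes VISTA, stood above Klre1+ cells in every pool. Cd160 exceeded Klre1+ cells in 6 of 6 pools (346 against 167 CPM) and Tcf7+ cells in 4 of 6 (226 CPM). Vsir was at 182, 141 and 96.4 CPM. Lag3 and Tigit, though above Tcf7+ cells in 5 pools, thus lay between the means of the other 2 kinds of cell.

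Of 20 transcription factors tied to exhaustion or effector fate, 6 were higher and 3 lower than in Tcf7+ cells in every pool. Tox ran from 239.9 to 682 CPM with a median of 357, and its mean of 398 ± 171 lay within the spread of the 359 ± 83.6 in Tcf7+ cells (higher in 4, lower in 2). Factors of the NR4A family, induced by T cell receptor signals, were higher: Nr4a1 averaged 449.7 against 310.3 CPM, Nr4a2 614 against 419.9 and Nr4a3 516 against 291, in 6, 6 and 6 of 6 pools. Rbpj, the DNA-binding partner of Notch, was higher in 6 of 6 pools (524 ± 68.2 against 312 ± 61.9 CPM), and so were Ikzf3, which encodes Aiolos (379.6 against 296), and Hif1a, the oxygen-regulated factor (602 against 429). Eomes, a T-box factor of memory and exhausted cells, was lower in 6 of 6 (32.3 against 60.6 CPM), as were Ikzf2 (69.1 against 155) and Runx3 (257 against 313). Prdm1, which encodes BLIMP-1, was at 35.2 CPM against 28.1 in Tcf7+ and 65.7 in Klre1+ cells.

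Genes of stemness and the naive state were lower than in Tcf7+ cells in every pool for 6 of the 15 compared, with a median log2 ratio of -0.99. Cells chosen without Tcf7 were set beside cells chosen with it, so this direction follows the gate in part. Lef1, the partner factor of TCF-1, ran from 22.4 to 44.5 CPM (median 34.4) against 66.5 to 136 (median 104), and the groups did not overlap. The lymph node homing receptor Ccr7 was at 13.9 against 92.0 CPM. Slamf6, a surface marker of progenitor exhausted cells, was at 67.5 CPM against 89.7 in Tcf7+ and 15.1 in Klre1+ cells, with a UMI in 38.4% of exhausted-like cells. Of ectoenzymes, Cd38 (an NADase) was higher in 6 of 6 pools (44.3 against 27.4 CPM), and Entpd1, which encodes CD39, in 5 of 6 (69.0 against 38.5, with 116 in Klre1+ cells). With red cells alone in both groups neither was higher in more than 3 pools: Cd38 was at 14.4 against 16.02 CPM, higher in 2 pools and lower in 3, and Entpd1 at 27.4 against 21.8, higher in 3 and lower in 3. Cd101, a marker of the late exhausted state, was at 39.1, 49.8 and 36.1 CPM. Of the other lists, red cells alone gave 0 of 11 inhibitory receptor genes, 4 of 20 transcription factor genes, 3 of 13 cytotoxic genes and 1 of 14 cytokine and chemokine genes higher than red Tcf7+ cells in every pool, where 302 of 9678 genes were.

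Cytotoxic genes were higher in every pool for 3 of 13. Prf1, which encodes perforin, was at 393 and 504 in NT day 1, 197 and 283 in RT day 1 and 483 and 185 in NT day 3, or 341 ± 139.9 CPM against 92.3 ± 35.7 in Tcf7+ and 541 ± 233 in Klre1+ cells. Nkg7, a granule protein, averaged 2732 against 1874 CPM, and Fasl, the death ligand, 215 against 136, both in 6 of 6 pools. Gzmb (granzyme B) was higher in 5 of 6 (1119 ± 596 against 562 ± 180.2 CPM). Prf1 ran from 185 to 504 CPM over pools of exhausted-like cells, apart from the 59.6 to 138 of Tcf7+ cells but overlapping the 375 to 990 of Klre1+ cells. By the mean its order was Tcf7+, exhausted-like, Klre1+. Gzmd was not detected in any of the 112 cells, which allows a share of cells with a UMI of up to 2.68%.

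Cytokines and chemokines had a list median of 1.11 over 14 genes, the highest of the functional lists, with 3 higher in every pool. Ccl3, a chemoattractant for myeloid and T cells, was at 7252 and 7431 in NT day 1, 4235 and 7783 in RT day 1 and 3965 and 2456 in NT day 3, or 5520.3 ± 2246 CPM against 1950.4 ± 1157. Its neighbour Ccl4 was higher in 5 of 6 pools (11711 against 4834 CPM), and Ccl1, the ligand of CCR8, in 6 of 6 (2995 ± 2243 against 759.6 ± 417 CPM). Csf1, the macrophage growth factor, was at 99.2 ± 38.3 CPM, between 32.3 ± 10.1 in Tcf7+ and 212 ± 49.2 in Klre1+ cells, apart from both in 6 of 6 pools. Ifng had a UMI in 93.8% of exhausted-like cells and averaged 5500.1 ± 3829 CPM against 3128 ± 2448. Il2, the T cell growth factor, had a UMI in 19.6% of exhausted-like cells, 17.4% of Tcf7+ cells, 3.12% of Klre1+ cells and 4.26% of resting cells. Its share thus lay near that of Tcf7+ cells and above that of Klre1+ cells, at median depths that differ little.

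Among costimulatory and activation genes, Tnfrsf9, which encodes 4-1BB, was higher in 6 of 6 pools (1051 ± 276 against 415 ± 166 CPM) and Icos in 6 of 6 (349.6 against 237). Alcam, which encodes the CD6 ligand, stood above both comparison groups in 6 of 6 pools (574 ± 191 CPM against 222 in Tcf7+ and 281 in Klre1+ cells), as did Sema7a, a semaphorin (129 against 53.4 and 52.3), and Nr4a1 and Nr4a3, described above. Egr2, a factor induced by receptor signals, averaged 133 ± 81.2 CPM, higher in 6 of 6 pools, and Rgs16, a regulator of G protein signals, 719.8 against 316. Other genes with the largest ratios over Tcf7+ cells were Srgap3 (94.8 against 33.7 CPM), Lrrk1 (76.6 against 27.1), Atf3 (59.9 against 23.1), Sult2b1 (62.0 against 24.3) and Nek6 (102 against 43.7).

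Interferon-stimulated genes stood apart from the other lists. Against Tcf7+ cells 20 of 24 were lower in every pool and none higher, with a median log2 ratio of -1.38, where 7.26% of all genes were lower. Ifit3, an antiviral effector, ran from 23.1 to 64.1 CPM (median 47.2) against 129 to 465 (median 209). Ifit1 averaged 30.0 against 161 CPM and Rsad2, which encodes viperin, 9.34 against 84.3. The 3 genes were also high in CD8 cells with Pdcd1 but with Havcr2, Tcf7 and Klre1 at 0. There Ifit3 averaged 468, Ifit1 259 and Rsad2 181 CPM, and exhausted-like cells were lower in 5, 4 and 4 of 5 pools. Exhausted-like and Klre1+ cells were near each other, with 23.7 CPM of Ifit1 in Klre1+ cells, a list median of 0.04, 2 genes higher in every pool and none lower. In red cells alone 12 of 24 genes were lower than in red Tcf7+ cells in every pool (median -1.44), where 613 of 9678 genes were. Other genes far lower than in Tcf7+ cells were Itga4, the alpha 4 integrin (75.1 ± 51.4 against 268 ± 107 CPM), Aff3 (25.1 against 171), Klf3 (8.18 against 56.9) and Dapl1 (2.57 against 50.2).

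Few genes of the remaining lists lay apart in every pool. Of residency and trafficking genes, 2 of 16 were higher (Rgs1 and Rgs16) and 3 lower (Cxcr3, Itga4 and Itgb7) than in Tcf7+ cells in every pool. Cxcr3, the receptor for interferon-induced chemokines, was below Tcf7+ and above Klre1+ cells in 6 of 6 pools (120.0, 167 and 44.2 CPM). Of 21 cell cycle genes, 19 p53 targets and 12 hypoxia genes, none was higher or lower in every pool. Mki67, a marker of dividing cells, had a UMI in 33.0% of exhausted-like, 39.1% of Tcf7+, 41.9% of Klre1+ and 11.2% of resting cells. Of NK receptors, Klrd1 (CD94) was at 461 CPM against 473 in Tcf7+ and 905 in Klre1+ cells.

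**Figure D3:**
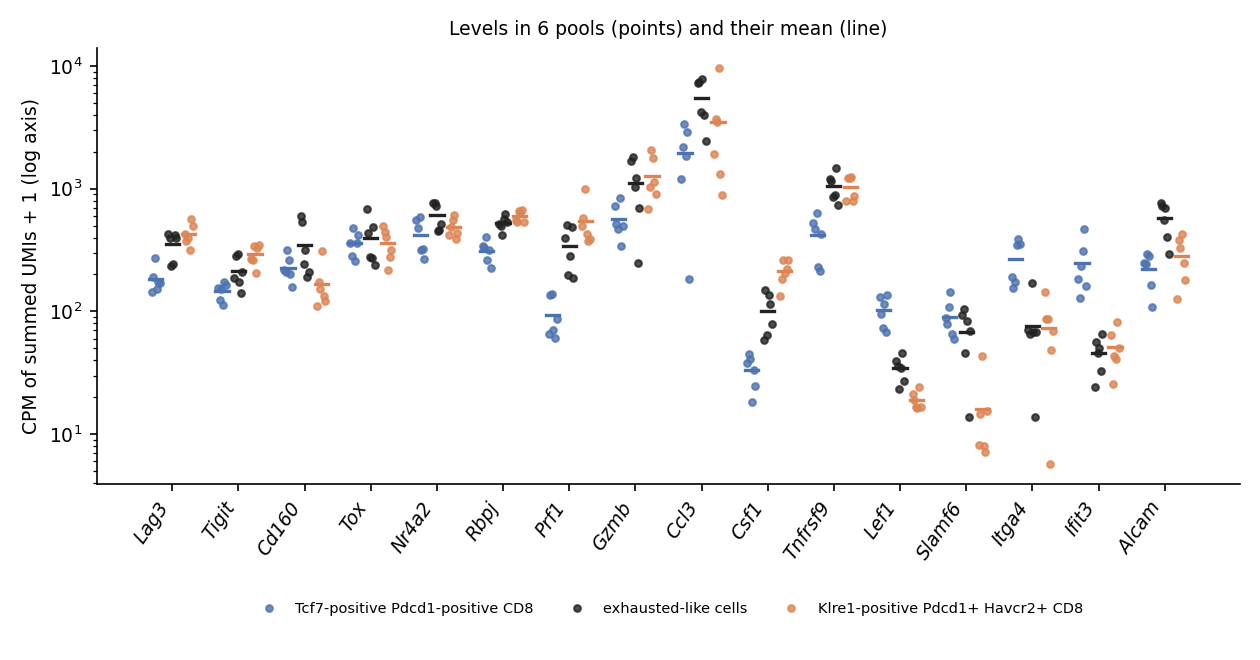
Levels (CPM + 1 on a log axis, vertical) of 16 genes in Tcf7+, exhausted-like and Klre1+ cells, with 1 point for each of the 6 pools and a line at the mean. Prf1, Ccl3, Csf1, Rbpj, Alcam and Tnfrsf9 are higher in exhausted-like than in Tcf7+ cells, Lef1, Itga4 and Ifit3 are lower, and Tox overlaps in all 3 kinds of cell.

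T cell receptor sequences were not used by the gate, and identical sequences mark the cells of 1 clone. A clone is defined below by the nucleotide sequence of the CDR3 loop of the beta chain in a pool. Of 112 cells, 105 had a beta chain, in 92 clones, and 7 clones held at least 2 exhausted-like cells, 20 cells in all. Their CDR3 sequences are shown because they tie exhausted-like cells to cells of other states, with capitals for the junction bases, those not shared with most other CDR3s of the same V segment from the 5′ end or the same J segment from the 3′ end:
NT day 1 replicate 2, TRBV20 and TRBJ2-4, 20 cells: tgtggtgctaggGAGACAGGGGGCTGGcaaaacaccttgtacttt
NT day 1 replicate 2, TRBV12-2+TRBV13-2 and TRBJ2-7, 11 cells: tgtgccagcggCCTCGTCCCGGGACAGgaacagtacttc
NT day 3 replicate 2, TRBV31 and TRBJ2-5, 9 cells: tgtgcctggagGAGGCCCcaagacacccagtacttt
NT day 3 replicate 2, TRBV16 and TRBJ2-7, 6 cells: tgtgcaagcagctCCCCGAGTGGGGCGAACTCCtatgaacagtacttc
RT day 1 replicate 2, TRBV19 and TRBJ2-5, 5 cells: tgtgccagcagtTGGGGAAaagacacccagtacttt
NT day 1 replicate 2, TRBV20 and TRBJ2-4, 5 cells: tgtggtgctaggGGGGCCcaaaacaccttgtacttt
NT day 1 replicate 2, TRBV13-1 and TRBJ2-4, 3 cells: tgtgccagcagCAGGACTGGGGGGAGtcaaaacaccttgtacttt
Each clone lay in cells of 1 colour in its pool: those of 11 and of 6 cells in green and the others in red cells. A pool here joins red cells of 1 tag with green cells of another. With the same tag in the other replicate, the clone of 20 cells had 1 green cell and that of 11 cells 1 red cell. The TRBV31 clone had 3 green and the TRBV16 clone 14 red cells there.

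The largest of these clones had 7 exhausted-like, 3 Tcf7+ and 8 Klre1+ cells among its 20, and 1 more exhausted-like cell, green and with the same tag sequence, lay in replicate 1. The second had 3 exhausted-like, 1 Tcf7+ and 4 Klre1+ cells. The TRBV31 clone had 2 exhausted-like and 5 Klre1+ cells and no Tcf7+ cell. The TRBV16 clone, with 2 exhausted-like cells among 6, had 14 red cells with the same tag sequence in replicate 1, of which 1 was exhausted-like and 5 were Tcf7+. Of 109 other cells in clones with an exhausted-like cell, 41 were Klre1+, 32 Tcf7+ and 103 CD8 in all. TRBV20 was carried by 13 exhausted-like cells (12.4%) of 6 clones, against 3.60% of other CD8 cells, and 7 of the 13 lay in the largest clone. Counted by clones, TRBV20 made up 6.52% of clones with an exhausted-like cell and 2.86% of those of other CD8 cells, given as a description.

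**Figure D4:**
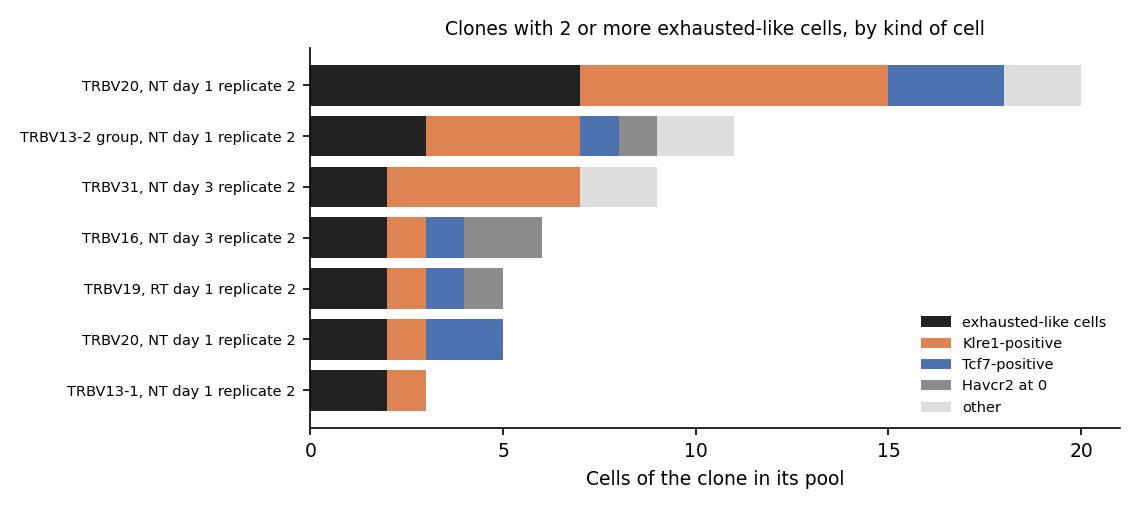
Cells of the 7 clones with at least 2 exhausted-like cells in a pool (number of cells, horizontal axis), split by kind of cell. All 7 hold cells outside the gate, and 5 of them hold Tcf7+ cells.

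Exhausted-like cells shared clones with Tcf7+ cells of their own pool and with none of the other pools of the well. The percentage of exhausted-like cells whose CDR3 was carried by a Tcf7+ cell of the pool was 14.3% and 55.9% in NT day 1, 20% and 18.8% in RT day 1, and 14.3% and 16.7% in NT day 3. NT day 1 replicate 2, the pool of the largest clone, lay far above the other 5, which ran from 14.3% to 20%. The mean was 23.3% ± 16.1 (SD, n = 6 pools) against 0% in other pools of the well. Since that second value was 0% for every pool, an exact sign-flip permutation test (p = 0.03125) says only that each of the 6 values was above 0, and no result rests on it. With pools formed by tag sequence the mean was 27.9%, without the cells of the largest clone 21.8%, and without NT day 1 replicate 2 it was 16.8%. Sharing with Klre1+ cells, added after seeing the data, was 28.6% ± 24.2 and above 0 in 5 of 6 pools.

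The share of cells in clones of at least 2 cells did not pass a test against Tcf7+ cells. Such cells made up 48.3% ± 22.7 of exhausted-like cells and 43.1% ± 12.4 of Tcf7+ cells (n = 6 pools, difference 5.12 points, exact sign-flip p = 0.469, higher in 4 of 6). With a minimum of 10 cells per pool the difference was -1.31 points (exact p = 1.0). Against Klre1+ cells, of which 65.6% ± 13.0 were in such clones, the difference was -17.3 points (exact p = 0.0938).

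Red and green exhausted-like cells were compared gene by gene to ask how those converted in the node differed from those that were not. Paired by replicate number, red cells had far higher levels of cytokine, chemokine and early receptor signalling genes. Green cells had higher levels of Entpd1, Cd38, Cd244a and Bcl2. Paired by tag sequence, 14 genes passed, 11 higher and 3 lower in red cells, and none of Entpd1, Cd38, Cd244a and Bcl2 was among them. The pools with at least 5 exhausted-like cells of each colour were those of NT day 1, RT day 1 and NT day 3 in replicate 2, all of 1 well, with 47 red and 24 green cells. In the edgeR quasi-likelihood test with the pool as a block, 262 of 4578 genes passed (5.72%), 166 higher (3.63%) and 96 lower (2.1%) in red cells. CPM in this and the next comparisons carry edgeR's TMM scaling and differ a little from those above.

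The direction of every gene below rests on the colours of replicate 2, where the labels' tag numbers give the opposite colours and so the opposite sign. In replicate 1 both sources give the same colours, and there 22 red and 5 green exhausted-like cells (558618 and 81678 UMIs), which did not enter the test, were set side by side with no test. Of the 166 genes called higher in red, 149 (89.8%) were higher in red cells of replicate 1, against 53.5% of all genes tested, and of the 96 called lower, 69 (71.9%) were lower, against 46.5%. Of 68 clones found in both replicates of a condition, 64 kept 1 tag sequence, which has the other colour in the other replicate. The cells of replicate 1 may thus come from the same mice as the tested cells, so this comparison is no independent check. Paired by tag sequence, with 5 to 11 cells per sum, 14 genes passed, 13 of them among the 262. Requiring 2 UMIs of Pdcd1 and Havcr2 left 2 pools and 8 genes, DESeq2 called 139, and leaving out cells with at least 2 beta chains 89. Leaving out NT day 1 or RT day 1 gave 104 or 532.

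Of 12 cytokine and chemokine genes tested, 9 rose in red cells and none fell, with a median log2 fold change of 3.48 against -0.01 over all genes. Ifng, the main effector cytokine of CD8 cells, was at 9973, 19521 and 3453 CPM in red and 558, 1182 and 467 CPM in green cells of NT day 1, RT day 1 and NT day 3, a log2 fold change of 3.71 ± 0.30 (SE, edgeR adjusted p = 0.000798). All 3 red values lay above all 3 green ones. In replicate 1 Ifng was at 5431 CPM in red and 1016 in green cells, and the tag pairing gave 2.66 (edgeR adjusted p = 0.0231). Il2 was at 654, 293 and 238 CPM in red and 0, 26.6 and 0 CPM in green cells, in the same order of pools (log2 fold change 5.35 ± 0.68, edgeR adjusted p = 0.00420). A UMI of Il2 was found in 13 of 47 red and 1 of 24 green cells, so the green level rests on 1 cell. Ccl3 was at 10627, 13651 and 5407 CPM in red and 1077, 564 and 63.9 CPM in green cells (4.58 ± 0.48, edgeR adjusted p = 0.00144), with no overlap. Xcl1, which draws cross-presenting dendritic cells, was at 14759.6, 10118 and 14001 CPM in red and 1083, 2588 and 162 CPM in green cells (3.91 ± 0.68, edgeR adjusted p = 0.0125), and did not pass with the tag pairing (3.21, edgeR adjusted p = 0.495).

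Other genes of that list that rose were Ccl1 (5.10 on the log2 scale), Lta (3.25), Ccl4 (2.82), Tnf (2.08) and Csf2, which encodes GM-CSF. Csf2 had 233 UMIs in 14 red cells and 1 UMI in green cells, a ratio of 117 (95% counting interval 20.8 to 4643). Passing also with the tag pairing were Csf2, Lta, Ccl3, Il2 and Ifng, whereas Tnf did not (edgeR adjusted p = 0.0782). Counting intervals cover counting error only, and UMIs were not spread evenly over cells: 1 cell held 41.2% of the red Csf2 UMIs.

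Early activation genes were the next group, with 5 of 12 higher in red cells. Of 17 transcription factors tied to exhaustion or effector fate, 5 rose and 1 fell. Nr4a3 was at 757, 925 and 752 CPM in red and 107, 112 and 59.0 CPM in green cells (log2 fold change 3.15 ± 0.28, edgeR adjusted p = 0.00126), and Egr2 at 171, 149 and 148 CPM in red and 22.6, 10.7 and 0 CPM in green cells (3.83 ± 0.56, edgeR adjusted p = 0.00591). The colours did not overlap for either gene, and both passed with the tag pairing (edgeR adjusted p = 0.00757 and 0.00793). Nr4a1 (2.77), Egr1 (1.52), Irf4 (1.57), Zeb2 (1.51) and Hif1a (0.91) also rose, as did Nfkbid (2.86) and Nfkbia (1.44), inhibitors of NF-kB. Id2, a repressor of E proteins that accompanies effector fate, fell, at 536, 795 and 540.1 CPM in red and 1664, 1693 and 1289 CPM in green cells (-1.33 ± 0.22, edgeR adjusted p = 0.0116). Id2 was not called with the tag pairing (edgeR adjusted p = 0.831). Of 10 costimulatory genes 4 rose: Tnfrsf4, which encodes OX40 (3.43), Cd40lg (2.83), Tnfrsf9 (1.88) and Cd27 (1.36). Tnfsf8, the CD30 ligand, was at 244, 391 and 455 CPM in red and 11.3, 10.7 and 0 CPM in green cells (5.58 ± 0.54, edgeR adjusted p = 0.00128).

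Genes that mark states of exhaustion went in both directions. Slamf6, the progenitor marker, rose, at 142, 146 and 154 CPM in red and 33.8, 5.33 and 0 CPM in green cells (log2 fold change 3.55 ± 0.64, edgeR adjusted p = 0.0147), and Cd160 rose by 2.39 on the log2 scale. Entpd1 fell, at 6.92, 22.3 and 10.6 CPM in red and 118, 159.8 and 231 CPM in green cells (-3.61 ± 0.43, edgeR adjusted p = 0.00320), with a UMI in 9 of 47 red and 17 of 24 green cells. Cd38 was at 3.46, 22.3 and 10.6 CPM in red and 192, 112 and 78.7 CPM in green cells (-3.58 ± 0.62, edgeR adjusted p = 0.0120). These 2 ectoenzymes, of 4 tested, were lower in red cells of replicate 1 too: Entpd1 was at 43.0 against 233 CPM and Cd38 at 21.5 against 171. Cd244a, which encodes the receptor 2B4, was at 10.4, 6.36 and 21.2 CPM in red and 90.3, 63.9 and 148 CPM in green cells (-3.00 ± 0.47, edgeR adjusted p = 0.00906). Bcl2, an inhibitor of apoptosis, was at 20.8, 137 and 31.8 CPM in red and 581, 634 and 556 CPM in green cells (-3.53 ± 0.46, edgeR adjusted p = 0.00449), with 172 against 796 CPM in replicate 1. All 4 kept a fold change below 0 with the tag pairing but did not pass (edgeR adjusted p = 0.137, 0.158, 0.279 and 0.260 for Entpd1, Cd38, Cd244a and Bcl2).

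Of 7 inhibitory receptors tested other than the gate's own, Cd160 rose, Cd244a fell and the others did not pass, nor did Tox. Lag3 averaged 503 ± 228 CPM in red and 222 ± 63.5 in green cells (SD, n = 3 pools, log2 fold change 1.10, edgeR adjusted p = 0.121). Tox gave -0.11 (edgeR adjusted p = 0.838), Tigit 0.25 (0.592) and Ctla4 -1.30 (0.115). The gate's own Pdcd1 and Havcr2 were at 0.37 and 0.62, values given as a description. Of 10 cytotoxic genes only Gzma rose (2.89, against 0.75 with the tag pairing), while Gzmb and Prf1 stood at -0.35 and 0.11 (edgeR adjusted p = 0.673 and 0.920). Of 15 residency and trafficking genes 2 rose, Ccr8 (1.97), the receptor for CCL1, and Rgs16 (2.06), and 2 fell, the integrin genes Itga4 (-3.66) and Itga1 (-1.64).

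Of 9 cell cycle genes tested, 2 fell in red cells and 9 had a fold change below 0 (median -1.49). Mcm5, part of the replicative helicase, was at -2.50 and Rrm2, a subunit of ribonucleotide reductase, at -3.54, but in replicate 1 both were higher in red cells: Mcm5 was at 80.6 against 0 CPM and Rrm2 at 71.6 against 24.5. With the tag pairing neither passed (Mcm5 -0.64, Rrm2 -0.34, edgeR adjusted p = 0.918 and 0.976). Of 14 interferon-stimulated genes 1 fell, Ifit2 (-2.75), with 13 below 0 (median -0.77). None of 8 p53 targets, 9 hypoxia and glycolysis genes or 4 NK receptor genes passed, and 1 of 6 heat shock genes rose, Hspd1 (1.48). Of genes outside the lists, Gpm6b had 112 UMIs in red and 0 in green cells, at least 18.8-fold higher against a floor of 3 counts over the group. In replicate 1 its direction was opposite, with 46.5 CPM in red and 379.5 in green cells. Utf1 had 2 green UMIs (ratio 27.1, counting interval 7.33 to 227), Egr3 had 3 (ratio 19.8, 6.60 to 97.2) and Mettl1 had 3 (ratio 13.7, 4.54 to 67.9). Lat2 (-3.55), an adaptor protein, St6galnac3 (-3.04), a sialyltransferase, and Camk2n1 (-3.02), an inhibitor of CaM kinase II, fell. With the tag pairing these 3 were at -1.88, -0.33 and -0.55 and did not pass (edgeR adjusted p = 0.5261, 0.941 and 0.917). Median depth in the 3 pools was 24835, 30092 and 16213 UMIs in red and 16565, 26596 and 34291 in green cells, and red cells were deeper in the pools of NT day 1 and RT day 1 only. The part of depth in the result was not tested. Without the cells of the largest clone, 7 of the 47 red cells, 299 genes passed, 258 of them among the 262.

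**Figure D5:**
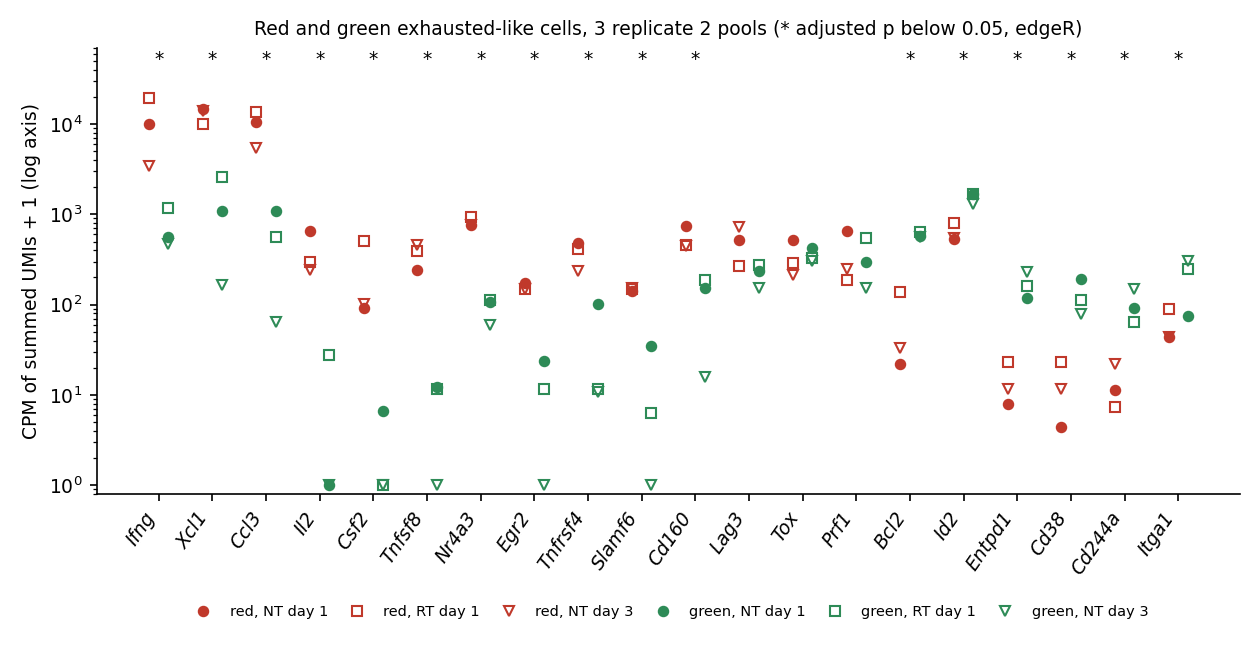
Levels (CPM + 1 on a log axis) of 20 genes in red and green exhausted-like cells of the 3 replicate 2 pools, with a marker shape for each pool and a star where the edgeR adjusted p was below 0.05. Ifng, Ccl3, Nr4a3 and Slamf6 are higher in red cells of every pool, Bcl2, Entpd1 and Cd38 higher in green cells of every pool, and Lag3, Tox and Prf1 have no star.

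RT and NT at day 1 shared wells, so radiation could be tested there within the exhausted-like cells of 4 pools, in a fit of 6 pools with a mean per condition. No gene of 5988 passed in edgeR (0.0%), with 196 at an unadjusted p below 0.05, and DESeq2 called 2. The gene with the lowest p was Hivep3, a zinc finger factor, at 468 and 412 CPM in NT and 88.7 and 129.8 in RT pools (log2 fold change -1.96, edgeR adjusted p = 0.0945). Gadd45g, a stress-induced gene, was at 23.4 and 32.1 CPM in NT and 126 and 261 in RT pools (2.77, edgeR adjusted p = 0.324). Trbc1 (-1.50), Gzmf (7.27) and Fcer1g (3.57) followed. Gzmf and Fcer1g rest on single cells: 2 of 29 RT cells had a UMI of each, and 1 cell held 98.7% of the RT UMIs of Gzmf and 88.5% of those of Fcer1g.

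Targets of p53, the factor that answers DNA damage, were above 0 in 11 of 12 genes tested (median 0.71), none of which passed. In 7 of 12 both RT pools lay above both NT pools, where 14.9% of all genes did. Cdkn1a, which encodes the cell cycle inhibitor p21, was at 3.90 and 34.7 CPM in NT and 149 and 68.7 in RT pools, and Ccng1 (cyclin G1) at 27.3 and 74.5 in NT and 336 and 126 in RT pools. Bax, which permeabilizes mitochondria in apoptosis, was at 137 and 186 CPM in NT and 350.3 and 290.1 in RT pools. The pools of these 3 genes did not overlap, each with an edgeR adjusted p of 1. Of 17 interferon-stimulated genes 16 were above 0 (median 0.38) and none passed. Lag3 was at 429 and 436 CPM in NT and 243 and 261 in RT pools (-0.77, edgeR adjusted p = 1.00), and Tox did not pass either. Leaving out 1 pool at a time gave 0 to 9 genes, the most without NT day 1 replicate 2.

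Time was compared between day 1 and day 3 in NT tumours, since no pool of RT day 3 held 5 exhausted-like cells. In the same fit 2 of 5988 genes passed (0.0334%), both lower at day 3. Trpm6, an ion channel gene, was at 85.8 and 93.8 CPM at day 1 and 0 and 2.39 at day 3 (edgeR adjusted p = 0.0276), with 95 UMIs in 19 of 44 cells against 1 UMI in 25 cells, a ratio of 49.4 (counting interval 8.66 to 1972). Cd7, a costimulatory surface receptor, was at 211 and 193 CPM at day 1 and 6.95 and 21.5 at day 3 (log2 fold change -3.53 ± 0.48, edgeR adjusted p = 0.0276). Neither was called with the replicate block, in red cells alone or with pools formed by tag sequence, each of which called 0 genes. Leaving out NT day 1 replicate 1 gave 24 genes, and leaving out another pool gave 8 (NT day 1), 2 and 10 (NT day 3) and 4 and 5 (RT day 1). The 2 without NT day 3 replicate 1 did not include Trpm6 or Cd7.

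Of 10 costimulatory genes Cd7 was the only one to fall, and 10 were below 0. Genes that did not pass had large differences too. Ifng was at 7779.6 and 7536 CPM at day 1 and 1409.9 and 1785 at day 3 (-2.26, edgeR adjusted p = 0.120), and Cd160 at 601 and 582 at day 1 and 208 and 208 at day 3 (-1.50, 0.120). Ahr, the aryl hydrocarbon receptor, gave -2.80 (0.111) and Gzmb -1.89 (0.138). For Ifng and Cd160 both day 3 pools lay below both day 1 pools, as 18.9% of all genes did (37.6% lay apart in either direction). The shared NT day 1 pools serve both the radiation and the time comparison. Genes could not be tested for FTY720, or for radiation at day 3, since no pool of RT, FTY720 or RT+FTY720 at day 3 held 5 exhausted-like cells.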

How the data were processed

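The deposited matrices hold UMI counts of genes and hashtags in each cell barcode, and the deposited TCR tables counts of UMIs per contig, made by the authors with Cell Ranger 8.0.1 on mm39, per the submitters' processing notes. Libraries were 10x GEM-X 5′, per the labels' protocols. No other filter is given in the sources used here, and genes are named as in the deposited files.

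Of 2816 barcodes, 76 with fewer than 500 genes or more than 10% mitochondrial UMIs were left out, and 2 of them passed the gate. A hashtag was called at 20 UMIs and 3 times the next, which called all 2740 cells, so no doublet between samples was removed. No doublet caller was run. Of the exhausted-like cells, 4 had at least 2 beta chains. Intervals of shares are exact Clopper-Pearson at 95%.

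Counts were summed per pool (and colour) with at least 5 cells and tested with edgeR 4.0.16 in R 4.3.3 (filterByExpr, TMM, glmQLFit, glmQLFTest, Benjamini-Hochberg over all genes, 0.05). The scripts were tested on simulated data. Shares and clones were tested over pools by two-sided exact permutation (scipy 1.17.1). Ratios of mean levels used a pseudocount of 1 CPM and list genes at 5 CPM or more. Replicates are separate pools of mice per the labels, but clones crossed them by tag sequence. If pools share mice, p-values measure only the spread between these samples.

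Replicate numbers did not pair the samples: deviations of same-numbered pools correlated at -0.153, -0.0594 and 0.00892, so the condition fits had no block. The red and green fit kept its planned block by replicate number, where the correlations were 0.0759, -0.0338 and -0.0818. By tag sequence they were -0.176, -0.0229 and -0.110, so these values back neither pairing. Clones of red and green cells followed the tag: 66 were shared by tag sequence and 7 by replicate number. Red and green cells with the same replicate number carried different tags, so the planned block joins cells that were not stained together. Whether they come from the same mice was not tested beyond these counts.

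Named genes were, per edgeR comparison, the 10 largest log2 fold changes in each direction among genes past the threshold with 1 direction in every pool (or the 5 lowest p where fewer than 5 passed), the list genes that passed, and up to 4 abundant genes per list. Against other CD8 cells they were the 15 largest ratios in each direction at 50 CPM or more and 1 direction in every pool. Exceptions, chosen after their values were seen, are list genes named for their role. The members of the gate and the lists were chosen with earlier results of these data known. Alternatives were DESeq2 1.42.0, filters, pools left out, other gates and colours. Pairing by tag, subsets of wells, red cells alone, Klre1+ comparisons and leaving out the largest clone were added after seeing the data.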

Additional observations from a re-analysis of the deposited data

Results flagged for a closer look

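In 34 groups of 6 values, 6 had 1 pool far from the nearest other pool. The cutoff gives about 1 group in 20 for normally distributed values. Most groups are levels of genes chosen for large ratios, which need not be so distributed, so no excess is read from the count. Tcf7 and Klre1, at 0 by the gate, could not be flagged. Each group of CPM or clone sharing values below holds the 6 pools of NT day 1, RT day 1 and NT day 3. The clone sharing of exhausted-like with Tcf7+ cells was 55.9% in NT day 1 replicate 2, and the next pool was at 20%. Ccl1 was at 7485 CPM in NT day 3 replicate 1, with the next pool at 2697. Egr2 was at 293 CPM in NT day 1 replicate 1, with the next at 125. Ccr7 was at 69.4 CPM in NT day 1 replicate 1, with the next at 10.6. Itga4 was at 170.1 CPM in RT day 1 replicate 1, with the next at 69.4. Dapl1 was at 11.9 CPM in NT day 3 replicate 2, with the next at 3.52.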

How the results depend on the processing

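The red excess in the share of exhausted-like cells, 3.19 points, passed the test with cells thinned to 5000 UMIs (7.22), without RT+FTY720 day 3 replicate 1 (5.08) and in the 6 pools of the wells of NT day 1 (4.83 with either pairing). Of the 178 cells that passed the gate after thinning, 72 were among the 112. The red excess ranged from 2.18 to 5.08 on leaving out a pool, and 1 of the 12 omissions changed the call. With the labels' tag colours the red excess became -0.667. Without the replicate block its p was 0.130. The radiation difference was 6.96 in thinned cells and 0.487 to 3.10 on leaving out a pool. The FTY720 difference of -1.50 ran from -3.46 to 0.454, with 0.137 without FTY720 day 3 replicate 1, and the day difference of -2.54 from -3.22 to -1.87. With a replicate block the p of the radiation difference was 0.4375 and that of FTY720 0.5. The expanded-clone difference of 5.12 was -1.31 with a minimum of 10 cells and 2.34 to 10.5 on leaving out a pool. Clone sharing with Tcf7+ cells was 27.8 with that minimum and 16.8 to 25.1 on leaving out a pool, where fewer pools cannot reach 0.05.

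The 262 genes of red against green became 139 with DESeq2 (137 shared), 676 with no filter on low counts, 411 with no replicate block, 104 to 532 on leaving out a pool, 89 without cells of 2 or more beta chains, 8 at 2 UMIs of Pdcd1 and Havcr2, and 14 paired by tag sequence. A minimum of 10 cells could not be fitted. With the labels' tag colours the signs turned by construction: Gpm6b -8.01, Csf2 -6.65, Tnfsf8 -5.58, Il2 -5.35, Ccl1 -5.10, Ccl3 -4.58, Utf1 -4.45, Egr3 -4.27, Mettl1 -4.00, Xcl1 -3.91, Itga4 3.66, Entpd1 3.61, Cd38 3.58, Lat2 3.55, Rrm2 3.54, Bcl2 3.53, D17H6S56E-5 3.13, St6galnac3 3.04, Camk2n1 3.02, Cd244a 3.00, Ifng -3.71, Nr4a3 -3.15, Lta -3.25, Tnf -2.08, Tnfrsf4 -3.43, Egr2 -3.83, Tnfrsf9 -1.88, Nr4a1 -2.77, Gzma -2.89, Ccl4 -2.82, Id2 1.33, Nfkbid -2.86, Nfkbia -1.44, Hspd1 -1.48, Slamf6 -3.55, Zeb2 -1.51, Cd160 -2.39, Ifit2 2.75, Egr1 -1.52, Rgs16 -2.06, Cd27 -1.36, Irf4 -1.57, Mcm5 2.50, Itga1 1.64, Ccr8 -1.97, Cd40lg -2.83 and Hif1a -0.91. Over the other alternatives the named genes of this comparison kept their direction and their side of the threshold 377 times and lost the call 110 times.

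The 0 genes of radiation at day 1 became 2 with DESeq2, 55 with no filter, 1 with the replicate block, 40 at a minimum of 10 cells, 2 without the largest clone and 0 to 9 on leaving out a pool. The 2 genes of time became 4 with DESeq2, 77 with no filter, 0 with the replicate block, 76 at a minimum of 10 cells, 1 at 2 UMIs of Pdcd1 and Havcr2, 0 in red cells, 0 by tag sequence and 2 to 24 on leaving out a pool. The replicate block changed no other call. For alternatives that changed a call, the cause was not tested. Green cells alone left no residual degrees of freedom. A condition left with 1 pool took its spread from the other pools. Depth and cell number limit the pools of RT day 3, FTY720 day 3 and RT+FTY720 day 3, and a Tcf7 or Klre1 zero in a cell of few UMIs may be missed RNA.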
